A study of Mus musculus with 16 samples.

Results

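Cirbp and Rbm3, the genes of the cold-inducible RNA-binding proteins CIRBP and RBM3, were followed in the somatosensory cortex of mice whose sleep had been disrupted. They were taken by gene symbol, and each matched 1 of the 24421 genes in every deposited table. RNA of each mouse was sequenced, and 12 libraries in 4 groups of 3 were compared. The groups are undisturbed wild-type C57BL/6 mice (CTL-WT), wild-type mice after sleep disruption (SD-WT), undisturbed AcPb-/- mice (CTL-AcPbKO) and AcPb-/- mice after sleep disruption (SD-AcPbKO). AcPb is the brain isoform of the interleukin-1 receptor accessory protein, encoded by Il1rap, and AcPb-/- mice were homozygous for its loss. All mice were labelled male, were 2 to 3 months old and were kept in cages at 23 to 24 °C with 12 h of light. Sleep disruption was by gentle handling from zeitgeber time (ZT) 20 to ZT4, and cortex of all 4 groups was collected at ZT4. The mice came from lines bred locally for 5 to 7 generations. No body or brain temperature was analysed here.

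CIRBP and RBM3 are small proteins with a single RNA-recognition motif followed by a glycine-rich tail, and they bind many messenger RNAs. In mammalian cells both transcripts rise on mild cooling and fall on mild warming, within the range that body and brain temperature cover over a day. In cortex both are known to fall while animals are kept awake. RBM3 is known for maintaining synapses in cooled brain, and CIRBP for binding clock transcripts such as Clock.

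Cirbp (ENSMUSG00000045193.13) lies on the plus strand of chromosome 10 at chr10:80165985-80172786 in GRCm38, and Rbm3 (ENSMUSG00000031167.16) on the minus strand of the X chromosome at chrX:8138975-8145880. GENCODE M21 gives Cirbp 7 transcripts, of which 1 is a target of nonsense-mediated decay, and Rbm3 11 transcripts, of which 2 are. Reads were counted per gene, so these transcripts are not separated in the values below. The coding sequences are 516 bases for Cirbp and 462 bases for Rbm3 in a principal transcript of each, and they are identical at 73.33% of 450 aligned bases. The longest run of identical bases is 11, so reads of one gene can be told from those of the other. A stretch of 60 coding bases in the RNA-recognition motif, bases 87 to 146 from the start codon in each gene, shows how alike and how separable they are. It runs from exon 2 into exon 3 in both genes, spanning chr10:80169900-80170058 on the plus strand and chrX:8144637-8144971 on the minus strand, with the intron between left out here. Capitals mark the 13 bases that differ.
Cirbp: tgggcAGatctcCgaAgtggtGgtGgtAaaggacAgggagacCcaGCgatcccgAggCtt
Rbm3: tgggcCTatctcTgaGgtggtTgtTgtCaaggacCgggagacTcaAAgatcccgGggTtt

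Cirbp shared no exon stretch of 100 bases with another annotated gene. Rbm3 shared 3.06% of its stretches with the pseudogene Rbm3-ps, 2.76% with Gm10156 and 2.24% with Gm48583, and none of these 3 is listed in the tables. The antisense gene Rbm3os overlaps 94 exon bases of Rbm3 and had 15.6 to 31.0 normalized reads a library, against 1739 to 2921 for Rbm3.

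The promoter of Cirbp is given because Cirbp carries the largest result below. The RefSeq table (GRCm38.p6) holds 2 windows for Cirbp and none for Rbm3. The first listed of the 2, shown here, is chr10:80167589-80167888 on the plus strand, 250 bases before to 50 bases after a transcription start. It lies inside the gene as GENCODE M21 places it, downstream of the gene's first base, and 65.7% of it is G or C. Capitals mark 1 match to TCCCCGCC, known as the mild cold response element of the Cirbp promoter, and 2 matches to CCAAT, 1 on each strand.
Cirbp promoter: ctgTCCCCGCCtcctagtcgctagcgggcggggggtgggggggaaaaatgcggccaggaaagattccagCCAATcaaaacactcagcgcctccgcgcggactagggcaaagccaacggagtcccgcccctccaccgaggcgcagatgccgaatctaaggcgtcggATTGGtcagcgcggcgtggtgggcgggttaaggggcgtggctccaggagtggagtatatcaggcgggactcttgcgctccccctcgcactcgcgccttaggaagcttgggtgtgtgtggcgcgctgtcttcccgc
Searched on both strands, TCCCCGCC was found in 5.38% and CCAAT in 37.4% of 32851 RefSeq promoters of this length. The match to TCCCCGCC begins 247 bases before the start. GGGCGG (GC box) had 3 matches and is found in 35.7% of promoters, and none of them overlaps a base in capitals. CACGTG (E-box) and TGACGTCA (cAMP response element) had 0 matches here and are found in 7.15% and 1.79% of promoters.

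A difference between libraries other than sleep touches all comparisons of disrupted with undisturbed mice. Xist, the X-inactivation RNA of female cells, had 25352 to 39358 reads in 4 of the 6 control libraries, CTL-WT replicates 2 and 3 and CTL-AcPbKO replicates 4 and 5, and these held 0 to 2 reads of the Y-linked genes Kdm5d, Uty, Ddx3y and Eif2s3y, summed. The other 8 libraries, among them all 6 of disrupted mice, had 5 to 13 Xist reads and 5105 to 10593 Y-linked reads. These 4 libraries thus go against the male label. The changes of Cirbp and Rbm3 within each genotype, their ratio and the list counts from the chaperones onward are given with and without them. The interaction, the correlations between genes, the neighbouring genes and the cell type markers are given only with them. Among control libraries of the same genotype, those with Xist reads had 30.8% (wild type) and 19.5% (AcPb-/-) more Rbm3 than the 1 without. For Cirbp the corresponding values were -0.79% and 9.19%. Over 433 X-linked genes the median log2 difference was 0.02 in both genotypes. For 4 genes known to escape X inactivation, the values were 45.5% and 37.3% for Eif2s3x, 28.4% and 32.0% for Ddx3x, 21.7% and 19.3% for Kdm5c, and 10.7% and 19.6% for Kdm6a. Over all genes 25.4% passed the threshold in SD-WT and 27.4% in SD-AcPbKO, in either direction. Of the 4 escape genes, 0 rose and 1 fell past it in SD-WT (Kdm6a, log2 fold change -0.37) and 0 passed in SD-AcPbKO. Of the 4 Y-linked genes 4 rose in SD-WT, with a median log2 fold change of 6.98, while 0 passed in SD-AcPbKO, with a median of 7.20. In each genotype 2 of the 3 controls were at or near 0 for these genes, so these fitted values depend on the pseudocount. In a limma fit of all 12 libraries with a term for Xist reads, that term was 0.32 on the log2 scale for Rbm3 (95% confidence interval 0.13 to 0.52, adjusted p = 0.159) and 0.06 for Cirbp (-0.10 to 0.22, adjusted p = 0.799).

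Disrupted libraries were also deeper, with 58770286 to 71857505 reads on genes against 26504840 to 41615582 in controls. Cirbp had 1502 to 2285 reads a library and Rbm3 1511 to 3326, so that counting error alone is at most 5.19% either way (exact Poisson 95% interval). Il1rap, read over the whole gene, was at 1476 to 1647 normalized reads in undisturbed and 1729 to 2062 in disrupted mice and was not lower in AcPb-/- libraries, which does not check the loss of 1 isoform. Excitatory neuron markers were high in every library, with summed normalized reads from 75228 to 102108. In SD-AcPbKO replicate 4 the choroid plexus transcript Ttr stood at 16186 normalized reads against 10.6 to 283.1 in the other libraries. In bulk tissue, fewer cells of a type and less RNA per cell cannot be told apart.

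Cirbp fell in wild-type mice after sleep disruption, to 0.498 of its control level. On counts normalized over all 12 libraries together, it was at 2516, 2663 and 2340 in CTL-WT replicates 1 to 3 and at 1251, 1246 and 1244 in SD-WT replicates 1, 2 and 4. Every disrupted library was below every control, and the disrupted libraries differed from each other by less than their counting error. The means were 2507 ± 161.9 (s.d., n = 3) and 1247 ± 3.77 (s.d., n = 3). Groups did not overlap for 40.2% of all 20417 genes tested. In the limma fit of these 6 libraries on log2(normalized count + 1) Cirbp fell by 50.2% (95% confidence interval -54.9% to -44.9%, adjusted p = 9.18e-05), with 25.4% of genes past an adjusted p of 0.05 in either direction. Its p-value ranked 4 of all genes tested, and 1 among those that fell. Only 2.35% of genes had a log2 fold change as low or lower.

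Rbm3 was less clearly lower in wild-type mice. Its normalized counts were 2219, 2886 and 2921 in CTL-WT replicates 1 to 3 and 2241, 2375 and 1814 in SD-WT replicates 1, 2 and 4. The groups overlapped, since the control library without Xist reads was below 2 of the 3 disrupted libraries. The log2 fold change was -0.32 (SE 0.12, 95% confidence interval -0.59 to -0.05), and with an adjusted p of 0.0822 (limma) it did not pass the threshold. By DESeq2 on the recovered reads it did, at an adjusted p of 0.0295 and a log2 fold change of -0.32, as did 34.3% of genes. Leaving out CTL-WT replicate 1, the control without Xist reads, also put it past (-0.448, adjusted p = 0.0193, limma), and leaving out SD-WT replicate 4 gave -0.202 (adjusted p = 0.206). Measured against the control without Xist reads, the SD-WT mean of Rbm3 differed by -3.40% and that of Cirbp by -50.4%.

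**Figure D1:**
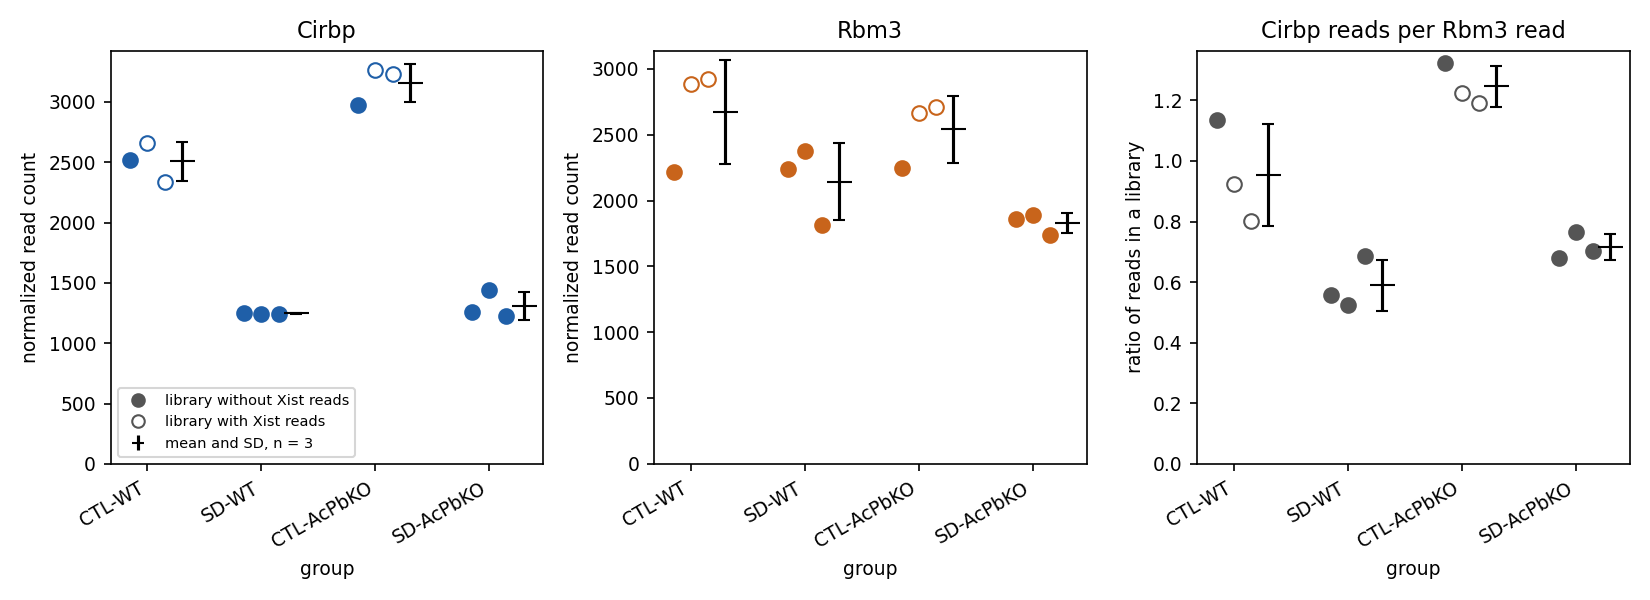
Normalized read counts of Cirbp (left) and Rbm3 (middle) and Cirbp reads per Rbm3 read (right) in each library by group, with the mean and standard deviation of 3 libraries beside the points; open points are libraries with Xist reads. Cirbp lies between 1224 and 1442 in the 6 disrupted libraries and between 2340 and 3268 in the 6 controls, and the control of each genotype without Xist reads has its lowest Rbm3 count.

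In AcPb-/- mice Cirbp fell again, and Rbm3 fell with it. Cirbp was at 2977, 3268 and 3233 in CTL-AcPbKO replicates 3 to 5 and at 1262, 1442 and 1224 in SD-AcPbKO replicates 2 to 4. It thus fell by 58.5% (95% confidence interval -63.3% to -53.2%, adjusted p = 0.000444, limma), and its p-value was the smallest of 20574 genes, 27.4% of which were past the threshold. Rbm3 was at 2250, 2668 and 2710 in the controls and at 1858, 1887 and 1739 in the disrupted libraries. No disrupted library reached a control for either gene, which held for 42.3% of genes. Rbm3 fell by 27.7% (95% confidence interval -36.5% to -17.8%, adjusted p = 0.00423, limma). All 3 disrupted libraries were below the control without Xist reads, with a mean difference of -18.8%. Leaving out SD-AcPbKO replicate 4, the library with Ttr, gave log2 fold changes of -1.22 for Cirbp (adjusted p = 0.00422) and -0.43 for Rbm3 (adjusted p = 0.0218, limma).

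Averaged over both genotypes in a fit of all 12 libraries, Cirbp fell by 1.14 on the log2 scale (SE 0.05, adjusted p = 1.85e-07), the smallest p of 20978 genes. Rbm3 fell by 0.39 (SE 0.08, adjusted p = 0.002). In this fit 41.5% of genes were past the threshold, so that being past it was common, and the p of Rbm3 ranked 4379.

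The fall of Cirbp did not hang on the libraries with Xist reads, whereas the fall of Rbm3 did not pass the threshold without them. With a term for those libraries the average change of Cirbp was -1.10 (adjusted p = 1.95e-05), and without them, in 8 libraries with 1 control a genotype, -1.10 (adjusted p = 0.00533), with 24.7% of genes past the threshold. Per genotype the values without them were -1.01 (adjusted p = 0.0331) in wild-type and -1.18 (adjusted p = 0.0228) in AcPb-/- mice. In these fits the lone control is assumed to vary like the disrupted libraries. For Rbm3 the average change was -0.18 with the term (SE 0.08, adjusted p = 0.13) and -0.18 without the libraries (SE 0.11, adjusted p = 0.268). Within wild-type mice it became -0.10 (adjusted p = 0.54) and -0.06 (adjusted p = 0.844), and within AcPb-/- mice -0.26 (adjusted p = 0.0919) and -0.30 (adjusted p = 0.245). Sleep disruption and the 4 libraries share the control groups, so for Rbm3 the part of each in the difference cannot be told apart beyond these values.

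**Figure D2:**
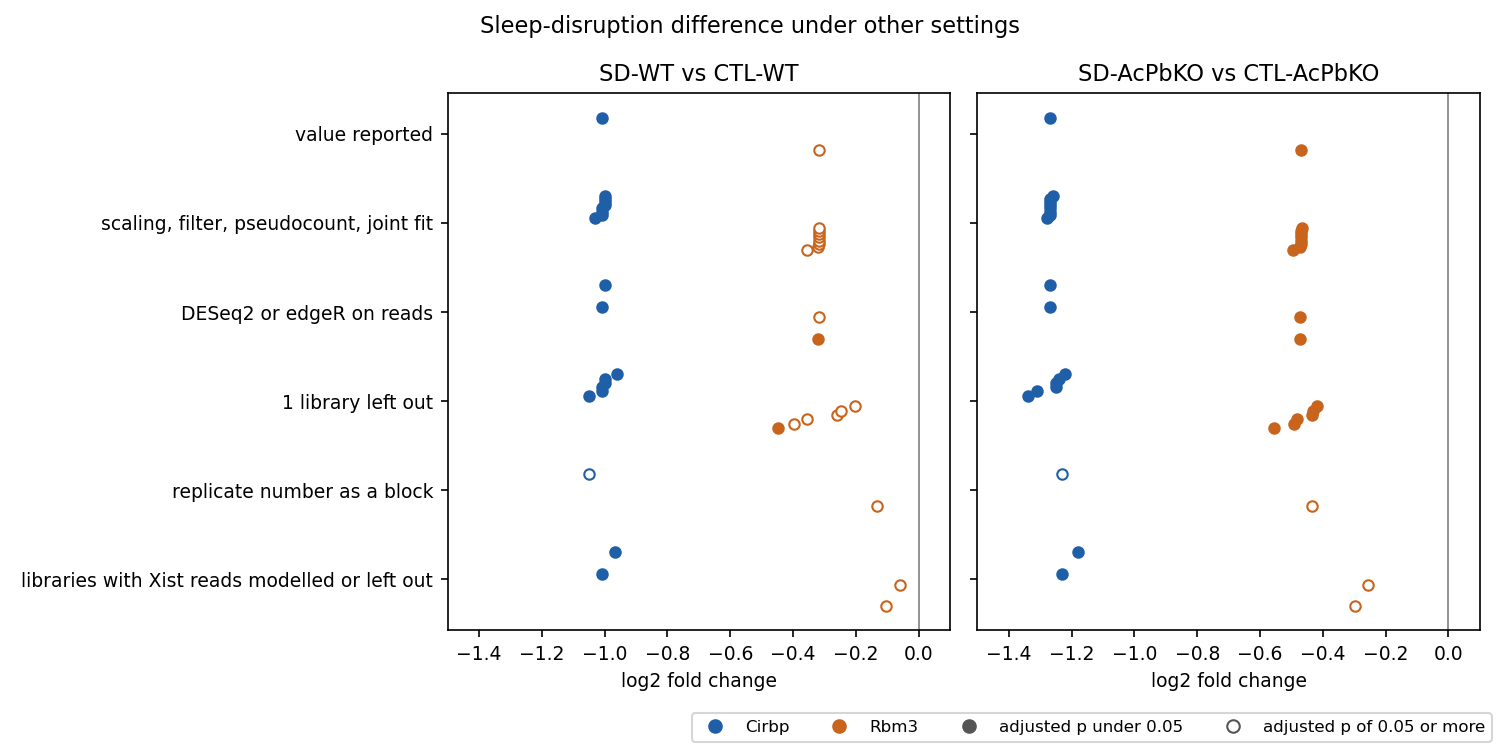
Log2 fold change of Cirbp (blue) and Rbm3 (orange) after sleep disruption in wild-type (left) and AcPb-/- mice (right) as reported and under the other settings tried, filled where the adjusted p is under 0.05. Cirbp lies between -1.05 and -0.96 in wild-type and between -1.34 and -1.18 in AcPb-/- mice, and Rbm3 moves toward 0 when the libraries with Xist reads are modelled or left out.

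The AcPb genotype itself made no difference past the threshold for either gene. In undisturbed mice Cirbp was higher in all 3 AcPb-/- libraries than in any wild-type library, a separation that 14.4% of genes showed, and the log2 difference was 0.33 (95% confidence interval 0.19 to 0.48). Its adjusted p of 0.254 (limma) missed the threshold, which 0.0197% of genes passed. DESeq2 on the recovered reads put it past (log2 difference 0.33, adjusted p = 0.0143, with 0.569% of genes past). Leaving out CTL-AcPbKO replicate 3 did so too (0.37, adjusted p = 0.0357, limma). That library is the AcPb-/- control without Xist reads and the lowest of its group in Cirbp. Between the controls without Xist reads, 1 a genotype, the counts were 2516 and 2977. Rbm3 overlapped between the undisturbed groups, with a log2 difference of -0.07 (95% confidence interval -0.32 to 0.18, adjusted p = 0.863).

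After sleep disruption the genotypes overlapped for both genes, while 11.4% of genes did not overlap and 0.0145% passed the threshold. The log2 difference of SD-AcPbKO from SD-WT was 0.07 for Cirbp (95% confidence interval -0.11 to 0.24, adjusted p = 0.923) and -0.22 for Rbm3 (-0.44 to -0.003, adjusted p = 0.809). The interval for Cirbp leaves room for a difference of up to 0.24 on the log2 scale in favour of AcPb-/- mice.

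Whether the response differed between genotypes was tested as an interaction over all 12 libraries. The fall of Cirbp was larger in AcPb-/- mice by 0.27 on the log2 scale, an interaction of -0.27 (95% confidence interval -0.48 to -0.05), which did not pass after adjustment over 20978 genes (adjusted p = 0.986, limma). For Rbm3 the interaction was -0.15 (-0.52 to 0.21, adjusted p = 0.986). By limma 0% of genes passed the threshold in this test, although 839 had an unadjusted p under 0.05, and DESeq2 passed 1 gene and edgeR 0. A difference in response was therefore not shown for either gene, and the interval for Cirbp does not exclude one of up to 0.48.

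Against undisturbed wild-type mice, which compares 2 changes at once, SD-AcPbKO mice differed by -47.8% in Cirbp (adjusted p = 0.000231) and by -31.1% in Rbm3 (adjusted p = 0.00426). The groups did not overlap for either gene, as for 42.4% of genes, and 27.7% of genes were past the threshold. Without the libraries with Xist reads Rbm3 was at -0.28 on the log2 scale (adjusted p = 0.283), and with a term for them it passed, at -0.32 (adjusted p = 0.0409, limma). These comparisons share control or disrupted libraries with those above and are not separate evidence.

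**Figure D3:**
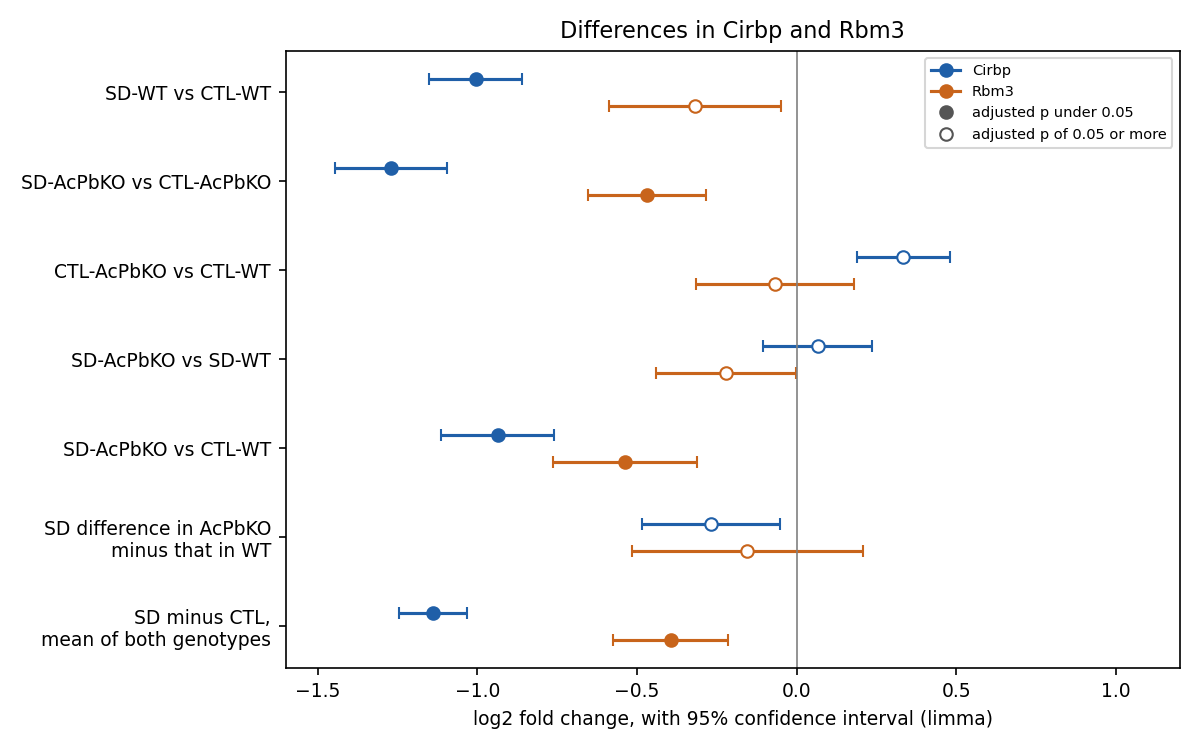
Log2 fold change of Cirbp (blue) and Rbm3 (orange) with its 95% confidence interval from limma in each comparison, filled where the adjusted p is under 0.05. Cirbp lies from -1.27 to -0.94 in the comparisons of disrupted with undisturbed mice, Rbm3 from -0.54 to -0.32, and neither is filled between genotypes at the same sleep state.

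Ordered by mean normalized count, Cirbp stood at 3159 ± 159 (s.d., n = 3) in CTL-AcPbKO, 2507 in CTL-WT, 1309 ± 116.6 in SD-AcPbKO and 1247 in SD-WT. Only the step from CTL-WT to SD-AcPbKO passed the threshold between neighbours in this order. Rbm3 stood at 2675 ± 395.7 in CTL-WT, 2543 ± 253.9 in CTL-AcPbKO, 2144 ± 292.9 in SD-WT and 1828 ± 78.7 in SD-AcPbKO. No neighbouring pair compared in that order passed it, and CTL-AcPbKO was not compared with SD-WT.

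Per length of all annotated exons, Cirbp was the more abundant of the 2 transcripts before sleep disruption and, in wild-type mice, close to Rbm3 after it. Reads per kilobase of exon, scaled to a library's total (RPKM), were 20.6 ± 1.40 (s.d., n = 3) for Cirbp and 12.2 ± 1.94 for Rbm3 in CTL-WT, and 9.94 ± 0.12 and 9.45 ± 1.17 in SD-WT. In CTL-AcPbKO Cirbp was at 26.0 ± 1.22 and Rbm3 at 11.6 ± 1.12, and in SD-AcPbKO at 10.5 ± 1.10 and 8.13 ± 0.39. The order depends on which Rbm3 transcript is in use. Taken over principal transcripts of 1321 bases for Cirbp and 2792 or 1152 bases, the longest and the shortest, for Rbm3, the CTL-WT RPKM were 40.6 for Cirbp and 20.5 or 49.8 for Rbm3.

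The ratio of both genes within a library needs no scaling between libraries. Cirbp reads per Rbm3 read were 1.13, 0.92 and 0.80 in CTL-WT, 0.56, 0.52 and 0.69 in SD-WT, 1.32, 1.23 and 1.19 in CTL-AcPbKO, and 0.68, 0.76 and 0.70 in SD-AcPbKO. Every disrupted library was below every control. The ratio fell to 0.621 of its control value in wild-type and 0.574 in AcPb-/- mice (exact two-sided permutation test of 400 arrangements within genotypes, p = 0.005, the smallest they can give, n = 6 against 6 libraries). Without the libraries with Xist reads it fell to 0.516 and 0.540 (exact permutation p = 0.0625, the smallest that 16 arrangements can give). Cirbp thus fell by more than Rbm3 did in the same libraries.

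Within groups the genes were not seen to vary together. Deviations from the group mean had a Pearson r of 0.253 (exact permutation p = 0.498) and a Spearman rho of 0.161 (exact permutation p = 0.715) over 12 libraries, with 1296 arrangements within groups. Without the 2 libraries farthest from the median for Cirbp, r was 0.453 over 10. This was 1 relation, so no adjustment was made, and 12 libraries cannot exclude a moderate correlation. In both control groups the library without Xist reads had the lowest Rbm3 count, so these deviations also carry that difference between libraries.

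The genes whose pattern over the 12 libraries was most like that of Cirbp, among 12556 genes with a mean of at least 100, were Bmyc (Pearson r = 0.992), Dact2 (0.990), Abhd16a (0.987), Nudt16 (0.987) and Tpst2 (0.987). All 5 were higher in undisturbed than in disrupted groups, as with Dact2, an inhibitor of Wnt and TGF-beta signaling, at mean counts of 5900 in CTL-WT and 3386 in SD-WT. Those most like Rbm3 were Tmem132d (r = 0.941), Cbx8 (0.932), Emx1 (0.930), Cdk19 (0.929) and Cacna2d4 (0.927). Emx1 is a transcription factor of cortical excitatory neurons. Rbm3 ranked 2663 in likeness to Cirbp (r = 0.736) and Cirbp 858 in likeness to Rbm3. These values carry the group differences that all libraries share and are given as a description.

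In wild-type and AcPb-/- mice 25.4% and 27.4% of all genes passed the threshold in either direction. Of the genes on either side of Cirbp and Rbm3, 0 fell past it. Midn, 7617 bases upstream, was higher in SD-WT than in CTL-WT (log2 fold change 0.53, adjusted p = 0.00743) and was at 0.37 in AcPb-/- mice (adjusted p = 0.154). Efna2, on the other side, was higher in both genotypes (0.38, adjusted p = 0.0415, and 0.41, adjusted p = 0.0371, limma). 1600002K03Rik begins 158 bases past the end of Cirbp and was at -0.37 and -0.18, past the threshold in neither genotype. Beside Rbm3, Wdr13 was at 0.07 and -0.08 and Tbc1d25 at -0.003 and -0.04, all short of the threshold. The antisense Rbm3os was at -0.33 and 0.09 on 31 or fewer normalized reads a library, also short of it.

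Chaperone genes respond to temperature in the opposite direction, and the factor HSF1 induces them when cells are warmed or hold unfolded protein. Of 21 listed chaperones, cochaperones and heat shock factors, 11 rose and 0 fell in SD-WT, with a median log2 fold change of 0.29 against -0.004 over all genes, and 15 rose and 0 fell in SD-AcPbKO, with a median of 0.42 against 0.01. The shares of all genes past the threshold were 25.4% and 27.4% in either direction. Hspa8, the abundant constitutive member of the HSP70 family, rose by 0.83 (adjusted p = 0.000338) and 0.98 (adjusted p = 0.00061, limma) on the log2 scale. Its median normalized count went from 66599 in CTL-WT to 117770 in SD-WT. Every disrupted library was above every control in either genotype, where 40.2% (wild type) and 42.3% (AcPb-/-) of all genes did not overlap. Hsph1, a nucleotide exchange factor for HSP70, rose by 0.72 and 0.96, and Hsf1 itself by 0.35 and 0.38.

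Other members of that list, among those chosen to be named whatever their values, did not pass the threshold. Hspa1a was at 0.05 and -0.04, Hspa1b at 0.27 and 0.11, and Dnajb1, an HSP40 cochaperone, at -0.07 and -0.07. Hsp90aa1, the heat-inducible HSP90, is named after its values were seen and rose by 0.54 (adjusted p = 0.000899) and 0.73 (adjusted p = 0.00128, limma). Hspa1a and Hspa1b share 56.5% and 49.9% of their 100-base stretches with other genes, mainly each other, and Hspa8 shares 28.5% with 9 other genes, so their reads may have been divided or lost. Without the libraries with Xist reads, averaged over genotypes, 11 of 21 rose and 0 fell, with a median of 0.29 and 24.7% of all genes past, and Hspa8 was at 0.80 (adjusted p = 0.00612) and Hsph1 at 0.79 (adjusted p = 0.00683, limma).

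Among 12 listed regulators of Cirbp or Rbm3, 6 rose and 0 fell in SD-WT, and 7 rose and 1 fell in SD-AcPbKO, against 25.4% and 27.4% of all genes past the threshold. Hnrnph1, a splicing factor that acts on a temperature-dependent poison exon of Rbm3, rose by 0.70 (adjusted p = 0.000213) and 0.85 (adjusted p = 0.000444, limma). It was at 9060 to 10243 normalized reads in CTL-WT and 15180 to 15892 in SD-WT. Without the libraries with Xist reads it was at 0.83, averaged over genotypes (adjusted p = 0.00533). Clk1, a kinase of splicing factors whose activity follows temperature, rose by 0.37 and 0.35, while its relative Clk4 was at 0.21 and 0.10, short of the threshold.

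Members of the BDNF pathway, which is reported to induce Rbm3 in cooled neurons, were on that list too. Bdnf, the ligand, rose by 0.60 (adjusted p = 0.033) and 0.76 (adjusted p = 0.00726, limma). Its receptor Ntrk2 was at 0.25 (adjusted p = 0.0563) and 0.26 (adjusted p = 0.069) and did not pass. Plcg1 and Creb1, downstream of the receptor, rose by 0.26 and 0.25 in wild-type and by 0.26 and 0.39 in AcPb-/- mice. Prmt1, an arginine methyltransferase that modifies CIRBP, was the 1 that fell in SD-AcPbKO, by 0.36 (adjusted p = 0.00896), and is named after its value was seen. The list's median was 0.25 and 0.26, and without the libraries with Xist reads 7 of 12 rose and 0 fell on average over genotypes, with a median of 0.27 (24.7% of all genes passed).

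Of 9 transcripts reported as bound or regulated by CIRBP or RBM3, 5 rose and 1 fell in SD-WT and 4 rose and 1 fell in SD-AcPbKO, beside 25.4% and 27.4% of all genes. Per2, a repressor of the circadian clock, rose by 1.04 (adjusted p = 0.00103) and 0.90 (adjusted p = 0.0136, limma), and its normalized counts were 1373 to 2203 in CTL-WT and 3409 to 3880 in SD-WT. Arntl and Clock, the partners of the clock activator, rose by 0.74 and 0.33 in wild-type and by 0.63 and 0.35 in AcPb-/- mice. Txn1, which encodes the antioxidant thioredoxin, fell, at -0.575 (adjusted p = 0.0158) and -0.665 (adjusted p = 0.0021, limma), and without the libraries with Xist reads it was at -0.54 averaged over genotypes (adjusted p = 0.1). Eif4g1, a scaffold of translation initiation, rose by 0.24 and 0.29. Rtn3, whose translation RBM3 raises in cooled brain, was at 0.02 and 0.07, short of the threshold, and translation was not measured. The list's median was 0.33 and 0.28, and without the libraries with Xist reads 4 of 9 rose and 0 fell, with a median of 0.30 (24.7% of all genes passed).

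Cold shock domain proteins bind single-stranded RNA and DNA. Of 8 cold shock domain genes, 2 rose and 1 fell in SD-WT and 2 rose and 0 fell in SD-AcPbKO, where 25.4% and 27.4% of all genes passed in either direction. Ybx1, a Y-box protein that packages messenger RNA, rose by 0.39 (adjusted p = 0.00237) and 0.38 (adjusted p = 0.00237, limma). Csdc2 rose by 0.39 and 0.32, and Carhsp1 fell by 0.36 in SD-WT and was at -0.20 in SD-AcPbKO, short of the threshold. The list's median was 0.06 and 0.19, and without the libraries with Xist reads 2 of 8 rose and 1 fell, with a median of 0.17 (24.7% of all genes passed).

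Among 16 other RNA-recognition-motif proteins of the hnRNP and stress granule kind, 6 rose and 1 fell in SD-WT and 8 rose and 1 fell in SD-AcPbKO, beside 25.4% and 27.4% of all genes. The 1 that fell was Hnrnpa0 in both genotypes, with log2 fold changes of -0.99 (adjusted p = 0.000431) and -1.16 (adjusted p = 0.00061, limma). Within wild-type and AcPb-/- mice 40.2% and 42.3% of all genes did not overlap between controls and disrupted libraries. Hnrnpa0 did not either, with normalized counts of 5122 to 6116 in controls and 2109 to 3247 in disrupted libraries. Without the libraries with Xist reads it was at -1.04 averaged over genotypes (adjusted p = 0.0121, limma). Hnrnpa1, a splicing factor, rose by 0.88 and 1.10, though 25.9% of its 100-base stretches are shared with 11 other genes, and Taf15 rose by 0.58 and 0.62. The list's median was 0.16 and 0.21, and without the libraries with Xist reads 7 of 16 rose and 1 fell, with a median of 0.18 (24.7% of all genes passed).

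**Figure D4:**
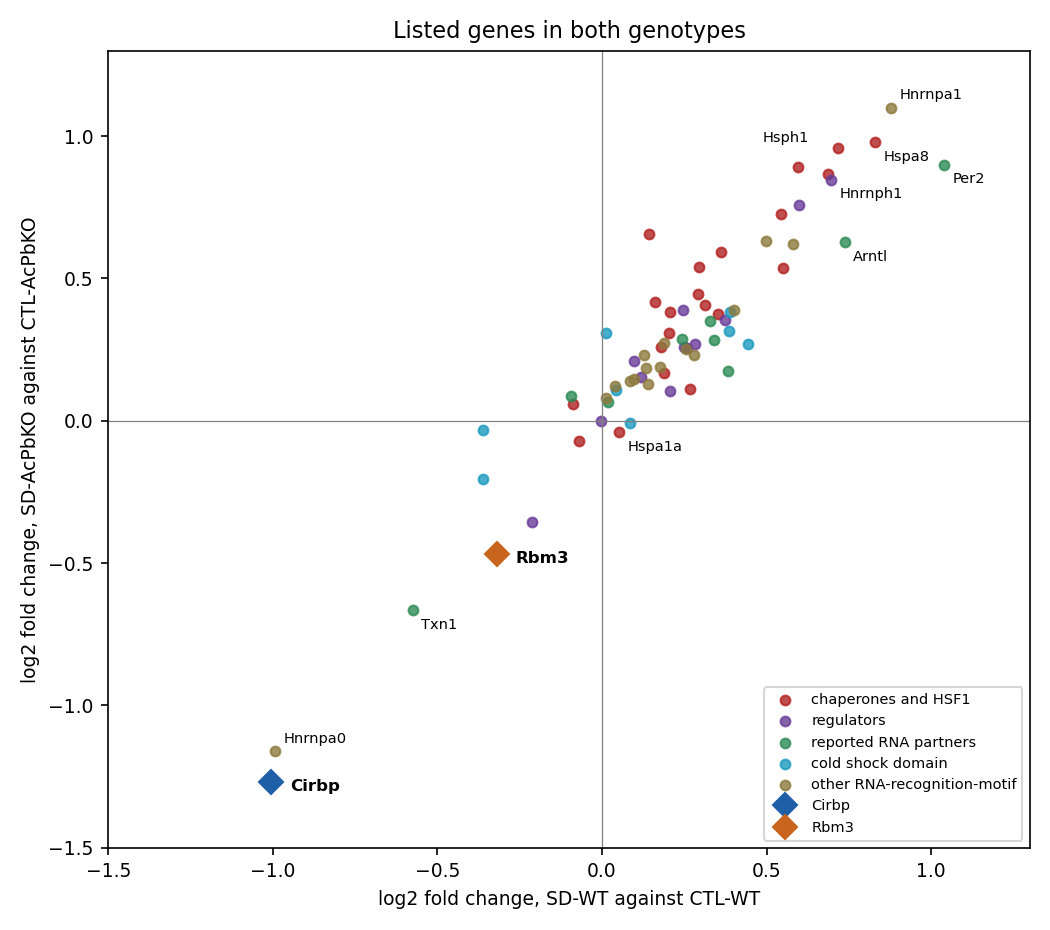
Log2 fold change after sleep disruption in wild-type (horizontal) and AcPb-/- mice (vertical) for the listed genes, coloured by list, with Cirbp and Rbm3 as diamonds. Cirbp lies at the lower left beside Hnrnpa0, Rbm3 nearer to 0, and Hspa8, Hsph1, Hnrnph1 and Per2 at the upper right.

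Fewer listed genes passed when the libraries with Xist reads were left out and genotypes were fitted apart, each with 1 control. In wild-type mice 3.31% and in AcPb-/- mice 10.1% of all genes then passed. Of chaperones 3 of 21 rose in wild-type and 8 of 21 in AcPb-/- mice, of regulators 4 of 12 in each, of RNA partners 2 of 9 in each, and of cold shock domain genes 0 of 8 in each. Of the other RNA-recognition-motif genes 2 of 16 rose and 0 fell in wild-type mice, and 3 rose and 1 fell in AcPb-/- mice. Averaged over genotypes with all libraries, 16 of 21 chaperones, 9 of 12 regulators, 5 of 9 RNA partners, 2 of 8 cold shock domain genes and 11 of 16 other RNA-recognition-motif genes rose, and 0, 1, 1, 1 and 1 fell, in a fit in which 41.5% of all genes passed.

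Markers of other cell types were read by lists of 4 to 6 genes, beside 25.4% and 27.4% of all genes past the threshold in wild-type and AcPb-/- mice. Controls and disrupted libraries did not overlap for 40.2% and 42.3% of all genes, so that a separation was common. No such share was taken for sums of genes. After sleep disruption 3 of 5 endothelial markers were higher and 1 lower in each genotype, and their sum was at 9964 to 11315 normalized reads in controls and 10325 to 13289 in disrupted libraries. Microglial markers passed the threshold for 0 of 5 in wild-type mice and were lower for 3 of 5 in AcPb-/- mice, with sums of 13936 to 14813 in CTL-AcPbKO and 10086 to 12246 in SD-AcPbKO. In wild-type mice the sums did not overlap either, at 14091 to 15428 in CTL-WT and 12908 to 13938 in SD-WT. Meningeal fibroblast markers were lower for 2 of 4 in wild-type and 1 of 4 in AcPb-/- mice, with sums of 2791 to 3082 in CTL-WT and 1682 to 2646 in SD-WT, and of 3115 to 3585 in CTL-AcPbKO and 2047 to 2982 in SD-AcPbKO. Oligodendrocyte markers were lower for 3 of 5 and 0 of 5, astrocyte markers for 2 of 5 and 1 of 5, and striatal neuron markers for 2 of 6 and 0 of 6. The sums of these 3 lists overlapped between disrupted and undisturbed mice, except that striatal sums were 8777 to 9568 in CTL-AcPbKO and higher, 9844 to 11775, in SD-AcPbKO. Of excitatory neuron markers 1 of 6 was higher in each genotype, and 2 and 1 were lower, with sums of 87340 to 95488 in CTL-WT and 75228 to 87284 in SD-WT, and of 97561 to 102108 in CTL-AcPbKO and 85628 to 90252 in SD-AcPbKO, overlapping in neither genotype. Of choroid plexus markers 1 of 4 was higher in wild-type mice, where their sum went from at most 330.4 to at least 346.1, and 0 in AcPb-/- mice. Of 5 red blood cell markers, 4 were at 0 in every library, and the other passed in neither genotype. No defining marker of the other cell types was at 0 in all libraries. The part of these cell types in the change of Cirbp or Rbm3 was not tested.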

How the data were processed

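Somatosensory cortex RNA of 12 mice was measured by the authors as paired-end RNA-seq. Per the labels, libraries were made with a stranded mRNA kit. The paper's methods name HISAT2, the mm10 genome, HTSeq and DESeq2, and the submitters' processing notes name HISAT2 2.2.1, featureCounts, bcl2fastq and DESeq2 1.31.16. The annotation and the strand setting of the counting are not given in the sources used here. The 5 deposited tables hold, for 6 libraries each, signal values that the authors made by dividing read counts by DESeq2 size factors. Their columns with the authors' own fold changes, test statistics and p-values were not used. The size factors were undone, and 100.0% of 732630 values came out within 0.01 of a whole read. The labels list 16 samples, and 4 of them were not analysed here.

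Each comparison was fitted by limma (version 3.58.1, R 4.3.3) with a variance trend on log2(normalized count + 1), over genes with a read in its libraries, with no replicate block. Interaction and averages came from 12 libraries normalized together by median ratios. P-values are two-sided and, adjusted after Benjamini and Hochberg across the genes tested, passed at 0.05. The fit was tested on simulated counts with 200 changed genes. DESeq2 1.42.0 and edgeR 4.0.16 were run on recovered reads as alternatives. Positions and shared stretches come from GENCODE M21 on GRCm38, and 1 of 2 members matched the RefSeq promoter table. Libraries had 26504840 to 71857505 reads on genes, and intervals on reads cover counting error only. Each library is 1 mouse per the labels.

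The members, the gene lists and the markers were chosen with earlier results of these data known. Genes named are the members, up to 2 highest and 2 lowest past the threshold in wild-type mice from each list, 13 defining genes, of which 1 is not reported here, the 5 genes most like each member, and checks of the labels. Neighbouring genes, Ddx3x, Eif2s3x, Kdm5c, Hsp90aa1 and Prmt1 are named outside that rule. The tests of the ratio, of lists without the libraries with Xist reads and of autosomal size factors were added after the data were seen.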

Additional observations from a re-analysis of the deposited data

How the results depend on the processing

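Of 284 alternative values for the 14 comparisons of Cirbp and Rbm3, 265 kept their direction and their side of the threshold, 11 lost it, 4 gained it and 4 turned sign. DESeq2 put Rbm3 past it in wild-type mice (-0.321) and Cirbp between undisturbed genotypes (0.333). With no filter Rbm3 in SD-AcPbKO against CTL-WT was at -0.537, adjusted p = 0.0565 (limma). With a term for libraries with Xist reads Rbm3 was at -0.257 in AcPb-/- mice and -0.18 on average, and without those libraries at -0.297, -0.178 on average, -0.279 for SD-AcPbKO against CTL-WT and 0.0178 between undisturbed genotypes. Leaving out 1 library gave Rbm3 -0.448 (without CTL-WT replicate 1) to -0.202 (without SD-WT replicate 4) in wild-type mice, Cirbp 0.284 to 0.379 and Rbm3 -0.196 to 0.0159 between undisturbed genotypes, and Cirbp -0.00507 to 0.111 between disrupted ones. With the replicate number as a block no gene passed in any comparison of 2 groups by limma, so Cirbp (-1.05, -1.23 and, against CTL-WT, -0.886) and Rbm3 (-0.434 and -0.631) lost their calls, and Cirbp between disrupted genotypes was at -0.00356. Of 10 same-numbered pairs of libraries 5 had a correlation over 0.1 (-0.427 to 0.231), which cannot decide whether the numbers pair the mice. With 6 libraries in a fit the block leaves little to estimate error from, so the lost calls do not decide it either. No paired analysis was possible for undisturbed genotypes because they share 1 number. Counts of genes past the threshold moved by over 1.5 times with no filter for SD-WT (2937) and for SD-AcPbKO against CTL-WT (3713). They did so without the libraries with Xist reads (687, 2097 for SD-AcPbKO, 1301 for SD-AcPbKO against CTL-WT and 5134 on average, fits of fewer samples). Leaving out 1 library gave 2699 (without CTL-WT replicate 2) to 6222 for SD-WT, with 2941 and 2836 without SD-WT replicates 1 and 2, and 3393 (without SD-AcPbKO replicate 2) to 5412 for SD-AcPbKO, with 3417 without CTL-AcPbKO replicate 4 and 3575 without SD-AcPbKO replicate 4. For SD-AcPbKO against CTL-WT it gave 3393 (without CTL-WT replicate 2) to 6008, with 3534 without SD-AcPbKO replicate 2. Between genotypes counts were 0 to 16 by limma over settings that keep all libraries, 93 and 97 by DESeq2, and 168 in undisturbed mice without CTL-AcPbKO replicate 3, where the interaction had 9. The cause of these changes was not tested.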
